A study of Mus musculus with 36 samples.

Results

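Bmp7 and Spo11 are neighbouring genes on mouse chromosome 2, and both stood higher in CD4 T cells without TRIM28 than in wild-type cells. They were chosen for that difference in these same arrays, so the differences between KO and WT are given here as a description, without a test. Each gene is read by 1 row of the array table with exactly 1 annotated symbol, which makes 2 of the 22180 genes that could be named. In RefSeq's mouse gene table (GRCm38.p6) Bmp7 and Spo11 have no protein-coding gene starting between them, and the 2 genes that start there are listed as long noncoding RNAs and have no named row on the array. Which exons the probes of the 2 rows read is not given in the sources used here.

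Bmp7 encodes bone morphogenetic protein 7, a secreted ligand of the TGF-beta superfamily. BMP ligands bind pairs of type I and type II serine/threonine kinase receptors, which phosphorylate Smad1, Smad5 and Smad9; these join Smad4 and switch on genes such as those of the Id family. Spo11 encodes a topoisomerase-like enzyme that cuts DNA to start meiotic recombination, and its known work lies in germ cells. TRIM28 (KAP1) is a co-repressor that KRAB zinc-finger proteins bring to DNA.

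The arrays cover 36 samples of sorted CD4 T cells in 12 groups of 3. KO cells carry the genotype Trim28-KO and WT cells come from littermates. In both genotypes the cells were naive, or had been stimulated for 72 h through CD3 and CD28 under the conditions Th0, Th1, Th2, Th17 or Treg. How the Trim28 allele was deleted, the ages of the mice and the cytokines of each condition are not given in the sources used here, nor whether the samples of a group were separate animals or cultures, and p-values therefore reflect the scatter of these samples alone, which may be technical. The RNA was of whole samples, where fewer cells with a transcript and less of it per cell cannot be told apart.

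All values are log2 intensities from 2.05 to 13.5, with sample medians between 5.18 and 5.35, and the table carries no detection call. Trim28 lay between 5.51 and 7.86 in the 18 KO samples, against 9.21 to 9.99 in the 18 WT samples. The KO naive samples kept more of the Trim28 signal, at 7.20 to 7.86, while the stimulated KO samples reached at most 6.58. The part of this in the differences between naive and stimulated KO cells was not tested. The T cell genes Cd3e, Cd3g, Cd3d, Cd4 and Cd28 lay between 8.27 and 12.57 in all samples. The germ cell genes Ddx4, Dazl and Stra8 stayed at or below 5.03 and did not pass the filter on low values, and their mean lay at or below 4.30 in KO samples and 4.42 in WT samples. Among markers of other cells, the 2 CD8 T cell genes averaged 5.91 to 7.13 in KO samples and 5.63 to 6.94 in WT samples, and the 4 myeloid genes 4.46 to 6.02 in KO samples and 4.33 to 5.55 in WT samples. Of the CD8 T cell genes, Cd8b1 lay between 6.18 and 8.84 over all samples, and Cd8a between 4.32 and 6.50. The 3 B cell genes averaged at most 4.57 in KO samples and 4.46 in WT samples, and the 2 NK genes at most 4.39 in KO samples and 4.14 in WT samples. Of the B cell genes only Cd79b passed the filter, and it lay between 4.55 and 6.26 over all samples. Its highest group means were 6.09 in KO Th2 and 6.01 in WT Th2 cultures, and its part in the values of the pair was not tested. Adgre1, a macrophage gene, was high in Th2 cultures alone of the 6 conditions, at a mean of 9.74 in KO and 8.64 in WT, and below 5 in the other groups; its part in the Th2 values of Bmp7 was not tested. Itgam, the other myeloid gene that passed the filter, averaged 7.36 in KO Treg and 5.63 in WT Treg cultures, and between 4.31 and 5.25 in the other groups, so its KO mean in Treg was above its WT mean, as for both members, and its part in their Treg differences was not tested. Lyz2 and Csf1r, the remaining myeloid genes, did not pass the filter.

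Bmp7 was measured above the table-wide median of 5.26 in all 36 samples. In naive cells it stood at 7.51, 7.24 and 7.94 in KO, against 6.23, 6.08 and 6.02 in WT. In Th0 it stood at 9.67, 9.17 and 9.71 in KO, against 7.50, 7.74 and 7.48 in WT. In Th1 it stood at 9.81, 9.69 and 9.40 in KO, against 7.75, 7.15 and 7.46 in WT. In each of these conditions the lowest KO sample lay above the highest WT sample by at least 1.01. Bmp7 reached 11.10, 10.93 and 10.90 in KO Th2 cells, against 10.25, 9.93 and 9.60 in WT Th2 cells. In Th17 it had 7.39, 7.58 and 7.63 in KO, against 5.39, 5.27 and 5.53 in WT. In Treg cultures it had 8.50, 8.60 and 9.03 in KO, against 6.29, 6.83 and 7.06 in WT. The groups did not overlap here either, and the gap was narrowest in Th2, at 0.65.

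Spo11 came above the table-wide median in 13 of 18 KO samples and 5 of 18 WT samples, so that it would have passed the filter on its WT samples alone. In naive cells Spo11 stood at 6.59, 5.76 and 6.41 in KO, against 5.40, 5.73 and 5.33 in WT. In Th0 it stood at 5.65, 5.78 and 6.07 in KO, against 4.45, 4.28 and 4.63 in WT. In Th1 it stood at 6.76, 6.64 and 6.14 in KO, against 5.59, 5.12 and 5.62 in WT. Naive KO sample 2 was the one that came close to WT, 0.025 above the highest WT sample, while Th0 left a gap of 1.02. In Th2 Spo11 had 5.58, 5.09 and 5.34 in KO, against 4.56, 3.62 and 3.92 in WT. In Th17 it had 5.23, 5.57 and 5.51 in KO, against 4.63, 4.97 and 5.16 in WT. In Treg cultures it had 3.74, 3.94 and 4.65 in KO, against 3.18, 3.73 and 3.61 in WT. The gap was 0.53 in Th2, 0.070 in Th17 and 0.0091 in Treg, so in the last pair the groups nearly touched.

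**Figure D1:**
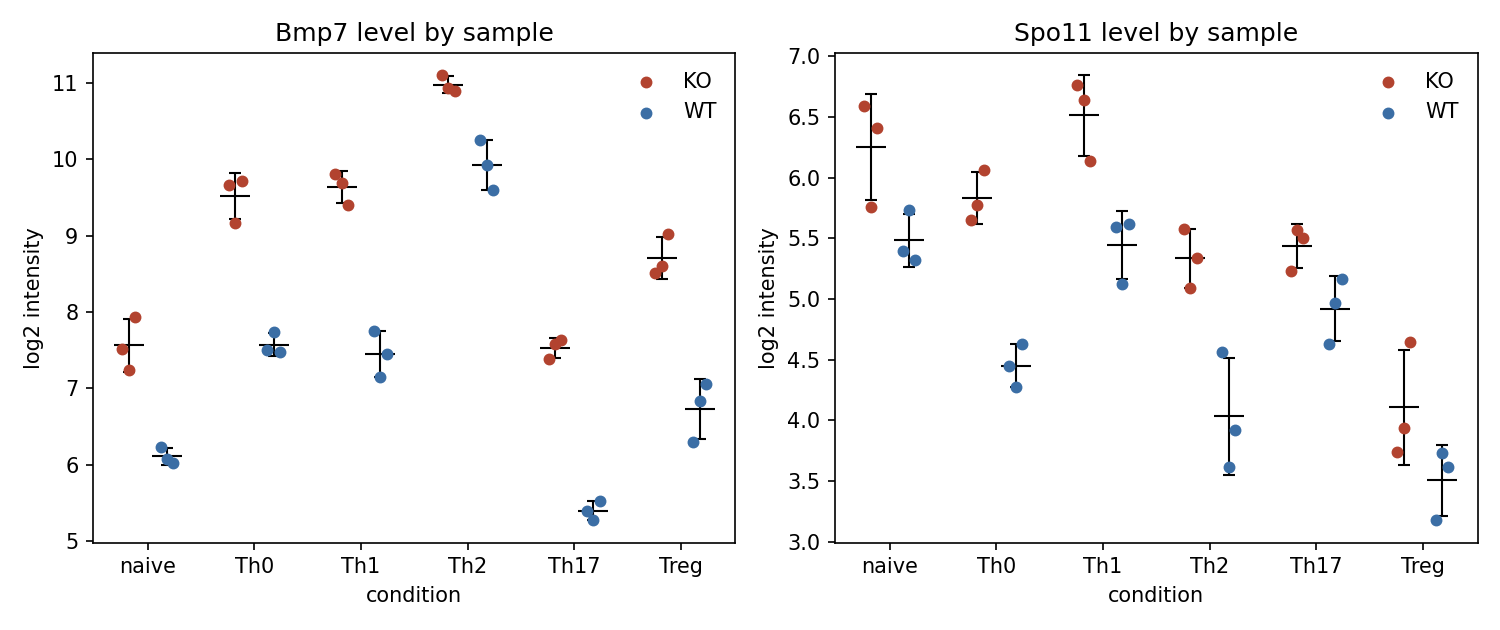
Log2 intensity of Bmp7 (left) and Spo11 (right) in each of the 36 samples, by condition, with KO in red and WT in blue; bars give the group mean and SD (n = 3). Every KO sample lies above every WT sample of its condition for both genes, narrowly for Spo11 in naive, Th17 and Treg cells.

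For both genes the lowest KO sample exceeded the highest WT sample in 6 of 6 conditions, a pattern that 42 of 13082 tested genes showed (0.321%). Tested genes were those above the table-wide median in at least 3 samples, and both members were among them. This separation is the contrast that chose the genes, and nothing is read from it. Averaged over the 6 conditions, Bmp7 was 3.46-fold higher in KO (log2 difference 1.79, SE 0.08, from a limma fit to all 36 samples), at a mean of 8.99 in KO and 7.20 in WT. Spo11 was 1.92-fold higher (0.94, SE 0.10), at a mean of 5.58 in KO and 4.64 in WT.

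The differences in the single conditions follow in order of size for each gene, though many of the steps in that order are smaller than the SE. For Bmp7 the log2 difference was 2.18 in Th1, 2.14 in Th17, 1.98 in Treg, 1.94 in Th0, 1.46 in naive cells and 1.05 in Th2 (SE 0.20 each). For Spo11 it was 1.38 in Th0, 1.30 in Th2, 1.07 in Th1, 0.77 in naive cells, 0.60 in Treg and 0.52 in Th17 (SE 0.25 each). The Spo11 difference in Treg rested in part on single samples: it was 0.33 without KO Treg 3 and 0.44 without WT Treg 1, and up to 0.78 with another sample left out.

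**Figure D2:**
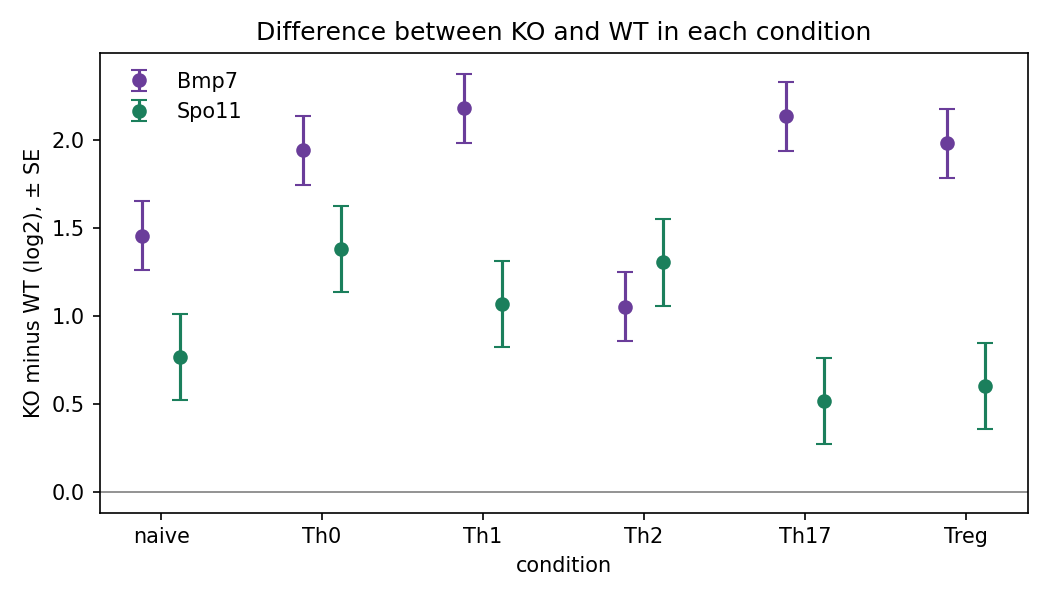
Difference between KO and WT (log2) for Bmp7 (purple) and Spo11 (green) in each condition, with its SE from the fit to all samples. Bmp7 lies between 1.05 (Th2) and 2.18 (Th1), and Spo11 between 0.52 (Th17) and 1.38 (Th0).

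Whether the KO effect, the log2 difference between KO and WT, differed between conditions was tested as an interaction in limma, with Benjamini-Hochberg adjustment over the 13082 genes; the same samples enter, but the genes had been chosen for being raised, not for this difference. Of 10 such tests 1 passed an adjusted p of 0.05. The KO effect on Bmp7 was smaller in Th2 (1.05) than in Th0 (1.94), by -0.89 (SE 0.28, adjusted p = 0.038), in a comparison where 10.2% of genes passed in either direction. In the other 4 comparisons of the KO effect with that in Th0, 18.5% of genes passed for naive cells, 0.589% for Th1, 15.6% for Th17 and 27% for Treg. That call was marginal. It was lost without any one of WT Th0 1, WT Th0 3, KO Th0 1, KO Th0 3, WT Th2 1, WT Th2 2, KO Th2 2 or KO Th2 3 (differences of -0.73 to -0.89, adjusted p of 0.07 to 0.11). For Bmp7 the other 4 differences lay between 0.04 and 0.49 (adjusted p of 0.24 to 0.98). For Spo11 the KO effect in Th17 differed from that in Th0 by -0.86 (SE 0.35, adjusted p = 0.088) and that in Treg by -0.78 (SE 0.35, adjusted p = 0.097). Neither passed with all samples. The Treg difference passed without WT Treg 1 (-0.94, adjusted p = 0.048) or without KO Treg 3 (-1.05, adjusted p = 0.023). The other Spo11 differences were 0.61 for Th0 over naive cells, -0.31 for Th1 over Th0 and -0.08 for Th2 over Th0 (adjusted p of 0.24 to 0.98).

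Apart from genotype, Bmp7 followed the culture condition strongly, and the WT samples show this without the contrast that chose it. Stimulation raised it 2.76-fold, to a mean of 7.57 ± 0.15 in WT Th0 cells, against 6.11 ± 0.11 in WT naive cells (SD, n = 3 each; log2 difference 1.47, SE 0.20, adjusted p = 3.7e-07; 53.6% of genes passed). Under Th2 conditions it rose a further 5.11-fold, to 9.93 ± 0.33 in WT Th2 cells, against 7.57 in WT Th0 cells (2.35, SE 0.20, adjusted p = 1.1e-10; 40.1% of genes passed), the 164th largest difference upwards among the 13082 genes. Under Th17 conditions it fell 4.52-fold, to 5.40 ± 0.13, which was below the mean of WT naive cells (-2.18, SE 0.20, adjusted p = 3.8e-10; 39.1% of genes passed), the 75th largest difference downwards. The WT Th17 samples (5.27 to 5.53) lay just above the table-wide median of 5.26. Without a detection call Bmp7 is not shown to be above background there, and the KO minus WT difference of 2.14 in Th17 involves this group too. In WT Treg cultures Bmp7 was lower as well, at 6.73 ± 0.39 (-0.85, SE 0.20, adjusted p = 0.0009; 41.6% of genes passed). WT Th1 cells had 7.45 ± 0.30, and their difference from Th0 of -0.12 did not pass (adjusted p = 0.81; 10.8% of genes passed).

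The KO cells went the same way, from a higher level. Bmp7 averaged 9.52 ± 0.30 in KO Th0 cells, against 7.56 ± 0.35 in KO naive cells (1.95, SE 0.20, adjusted p = 6.5e-09; 40.8% of genes passed). It rose to 10.98 ± 0.11 in KO Th2 cells (1.46 over KO Th0, adjusted p = 5.9e-07; 43.3% of genes passed). It fell to 7.53 ± 0.13 in KO Th17 cells (-1.98, adjusted p = 1.6e-09; 51.6% of genes passed) and to 8.71 ± 0.28 in KO Treg cultures (-0.81, adjusted p = 0.0032; 19.6% of genes passed). KO Th1 cells had 9.63 ± 0.21, a difference of 0.12 that did not pass (adjusted p = 0.80; 8.49% of genes passed). In order of level, KO Th2 stood first, Th1 and Th0 overlapped, Treg came next, and naive and Th17 cells overlapped at the bottom. In WT the order was Th2, then Th0 and Th1 with overlapping samples, then Treg, naive and Th17, each apart from the next. The Bmp7 values of KO Th17 and KO naive samples (7.24 to 7.94) overlapped those of WT Th0 and WT Th1 samples (7.15 to 7.75).

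Spo11 took another course, over values that in part lay low. All its samples in KO Treg and in WT Th0, Th2, Th17 and Treg were under the table-wide median of 5.26, some of them in the range of the germ cell genes that did not pass the filter, and without a detection call Spo11 is not shown to be above background there. Differences that involve these groups are between the values as listed. Stimulation lowered it in WT, to 4.45 ± 0.18 in Th0, against 5.48 ± 0.22 in naive cells (SD, n = 3 each; -1.03, SE 0.25, adjusted p = 0.00076). WT Th1 cells had more of it than WT Th0 cells, 5.44 ± 0.28 against 4.45 (0.99, SE 0.25, adjusted p = 0.0067), and WT Treg cultures had less, 3.51 ± 0.29 (-0.94, SE 0.25, adjusted p = 0.0026). WT Th2 cells had 4.03 ± 0.48 (-0.42, adjusted p = 0.18, which passed without WT Th2 1 at -0.68 and adjusted p = 0.032). WT Th17 cells had 4.92 ± 0.27 (0.47, adjusted p = 0.14, which passed in a fit to these 2 groups alone at adjusted p = 0.037).

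In KO the Treg cultures again stood lowest in Spo11, at 4.11 ± 0.47, against 5.83 ± 0.21 in KO Th0 cells (-1.72, SE 0.25, adjusted p = 4.9e-06). KO Th0 cells and KO naive cells (6.25 ± 0.44) differed by -0.42 (adjusted p = 0.18), a difference that passed once KO naive 2 was left out (-0.67, adjusted p = 0.04). KO Th1 cells had 6.51 ± 0.33, or 0.68 over KO Th0 (adjusted p = 0.086, and 0.049 without KO Th1 3, at 0.87). KO Th2 cells had 5.34 ± 0.24 (-0.49, adjusted p = 0.11) and KO Th17 cells 5.44 ± 0.18 (-0.40, adjusted p = 0.18), and neither difference passed, although that of Th2 came to an adjusted p of 0.05, just under the threshold, in a fit to these 2 groups alone. In order of Spo11 level in KO, Th1, naive and Th0 overlapped from each to the next, Th17 and Th2 overlapped below them, and Treg stood apart at the bottom. In WT every neighbouring pair in the order naive, Th1, Th17, Th0, Th2 and Treg overlapped.

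Across the 12 group means the 2 genes had little in common (Pearson r = 0.15, Spearman rho = 0.056; a description, with no p, since genotype is shared by 6 groups each). Within a genotype r was -0.015 over the 6 KO group means and -0.39 over the 6 WT group means, and r of the 6 KO minus WT differences was -0.38. Around the group means the picture was another. The deviations of the 36 samples from the means of their groups correlated at r = 0.65 (rho = 0.60), with r = 0.74 among the 18 KO samples and 0.56 among the 18 WT samples. The 2 deviations had the same sign in 27 of 36 samples, such as KO Treg 3 (0.32 for Bmp7 and 0.54 for Spo11), WT Treg 1 (-0.43 and -0.33) and KO naive 2 (-0.32 and -0.49). Without WT Treg 1 and KO naive 3, the samples farthest out in Bmp7, r was 0.63. Among the 13081 other tested genes, Spo11 ranked 20th by this correlation with Bmp7, and Bmp7 ranked 14th with Spo11. The deviations of one sample share its array, its cells and its normalization.

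**Figure D3:**
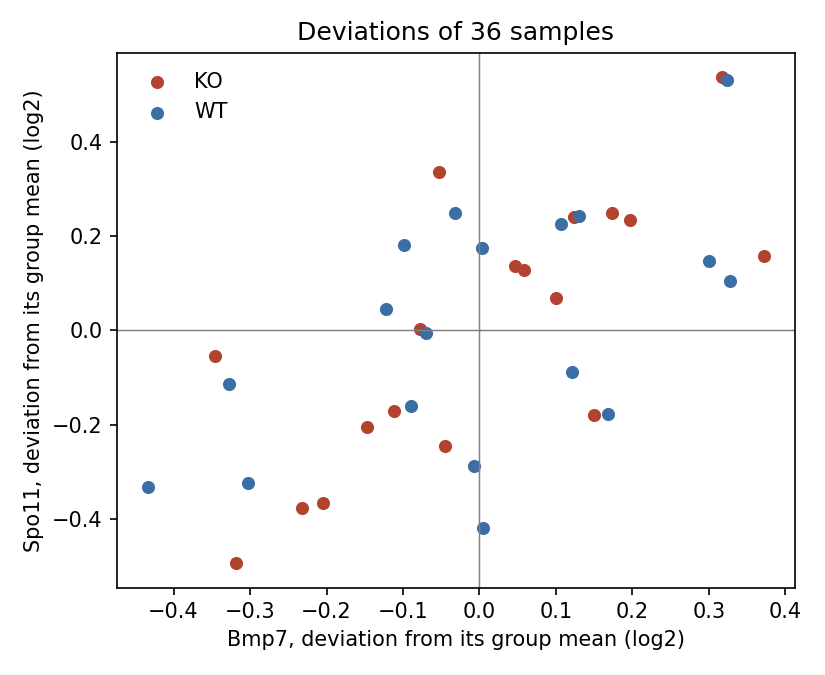
Deviation of each of the 36 samples from the mean of its group (log2), for Bmp7 on the horizontal axis and Spo11 on the vertical axis, with KO in red and WT in blue. The points run along the rising diagonal (r = 0.65), with both deviations of 1 sign in 27 of 36 samples.

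The genes whose group means ran most like those of Bmp7 over the 12 groups were P2ry10 (r = 0.90), a G protein-coupled receptor gene of lymphocytes, the microRNA gene Mir344d-2 (0.89), Lasp1 (0.89), which encodes an actin-binding protein, the Golgi protein gene Gcc1 (0.88) and Cmc1 (0.87). Their KO minus WT differences averaged between 0.10 and 0.32, against 1.79 for Bmp7. For Spo11 they were Cpm, the gene of carboxypeptidase M (r = 0.94), Gimap5 (0.91), Iqsec1 (0.91), Gimap8 (0.91) and Gimap6 (0.91), of which 3 belong to the GIMAP family of lymphocyte GTPases. Cpm averaged 1.03 higher in KO, close to the 0.94 of Spo11, with 1.87 in Th0 and 0.06 in Treg. Spo11 ranked 3928th among the genes most like Bmp7, and Bmp7 3809th among those most like Spo11. Genes with uncharacterized symbols were left out of the naming.

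The genes around the pair were chosen by position only, as those whose listed start lies within 1 Mb of that of either gene. RefSeq lists 58, of which 24 have a named row and 15 passed the filter, 7 on the side of Bmp7 and 8 on the side of Spo11. Averaged over the 6 conditions, 6 of the 15 were higher in KO (40%) and 3 lower (20%), where 18.9% and 27.5% of all tested genes passed in those directions. The median difference of the 15 was 0.08, against -0.01 over all tested genes. In this mean none reached the size of either member, both chosen for this difference, and the differences ran from -0.77 to 0.45. In single conditions some passed Spo11 in size. Fam210b had 1.18 in Th1, against 1.07 for Spo11, and Zbp1 had 0.61 in Treg, against 0.60. In Th0 Aurka had -1.76 and Pmepa1 -1.49, against 1.38 for Spo11.

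Of the 3 nearest tested genes on the side of Bmp7, Fam209 had 0.25 (SE 0.10, adjusted p = 0.036), Gcnt7 0.09 (SE 0.05, adjusted p = 0.12) and Rtf2 0.04 (SE 0.03, adjusted p = 0.35). The call of Fam209 was lost without any one of 17 samples (KO naive 1, KO Th0 2, KO Th1 1, KO Th1 2, KO Th2 2, KO Th17 1, KO Th17 2, KO Treg 1, KO Treg 2, WT naive 1, WT Th0 3, WT Th1 2, WT Th2 2, WT Th2 3, WT Th17 2, WT Th17 3 or WT Treg 2; adjusted p of up to 0.066), and also with no filter, after quantile normalization, under median centring and without KO Th0 1 and KO Th1 1 together. Gcnt7 passed without WT Treg 1 (0.11, adjusted p = 0.048). On the side of Spo11, Rae1, which encodes an mRNA export factor, had 0.08 (SE 0.03, adjusted p = 0.047), and lost the call without any one of 22 samples (0.07 to 0.09, adjusted p of up to 0.088), all but KO naive 3, KO Th0 3, KO Th1 1, KO Th2 3, KO Th17 1, KO Treg 3, WT naive 2, WT Th0 1, WT Th1 1, WT Th1 2, WT Th2 1, WT Th17 1, WT Th17 3 and WT Treg 1. It was lost as well with no filter, after quantile normalization, under median centring, with a term for sex and without KO Th0 1 and KO Th1 1 together. Zbp1, a sensor of Z-form nucleic acids that interferon induces, had 0.17 (adjusted p = 0.055), but 0.79 in Th2 (adjusted p = 0.0025) and 0.61 in Treg (adjusted p = 0.047). The mean difference of Zbp1 passed without any one of WT Th1 1, WT Th2 1, WT Treg 1, KO Th0 1, KO Th2 2, WT Th0 2, WT naive 3, KO naive 3 or KO Th17 3 (0.18 to 0.21, adjusted p of 0.0064 to 0.048), under the stricter filter and after quantile normalization.

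Rbm38, the second tested gene beyond Spo11, was the one neighbour whose KO samples all exceeded its WT samples in each of the 6 conditions, as in the pair itself (0.321% of tested genes). It encodes an RNA-binding protein and is a target of p53. It averaged 9.99 in KO and 9.53 in WT, a rise of 1.37-fold (0.45, SE 0.04, adjusted p = 2.4e-09). In naive cells it stood at 10.38, 10.46 and 10.38 in KO, against 9.99, 10.06 and 9.85 in WT. The difference passed in naive cells (0.44, adjusted p = 0.026), Th0 (0.45, adjusted p = 0.0012), Th1 (0.54, adjusted p = 0.00016), Th2 (0.53, adjusted p = 0.00052) and Treg (0.51, adjusted p = 0.0025), and not in Th17 (0.25, adjusted p = 0.16). Of all tested genes 0.948% were called higher in KO in naive cells, 16.8% in Th0, 17% in Th1, 7.51% in Th2, 4.03% in Th17 and 1.71% in Treg. Its other 2 array rows, which were not used, averaged 0.66 and 0.37 higher in KO. Around the group means Rbm38 did not run with the pair (r = 0.11 with Bmp7 and 0.05 with Spo11).

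Farther out, Fam210b (0.42, adjusted p = 1.4e-05), Cass4 (0.28, adjusted p = 0.00034) and the pseudogene Ppp4r1l-ps (0.18, adjusted p = 0.0059) rose in the mean of the 6 conditions. In single conditions Fam210b and Ppp4r1l-ps passed in Th0 and Th1 alone, and Cass4 in Th2 alone. In Treg Fam210b had -0.10 (adjusted p = 0.87) and Ppp4r1l-ps -0.19 (adjusted p = 0.54). A second row of Cass4, of nearly the same mean level (5.56 against 5.59), was not used and differed less, by 0.11 on average and by -0.04 in Th2. Aurka, the mitotic kinase gene (-0.77, adjusted p = 0.00017), Cstf1, a gene of mRNA cleavage (-0.20, adjusted p = 7.1e-05), and Pmepa1, a TGF-beta feedback gene (-0.56, adjusted p = 5e-05), fell in the mean of the 6 conditions. Aurka and Cstf1 passed in Th0 and Th1 alone, and Pmepa1 in Th0, Th1 and Th2. The remaining tested neighbours, 1700021F07Rik, Rab22a and Vapb, lay between -0.04 and 0.01 and did not pass.

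**Figure D4:**
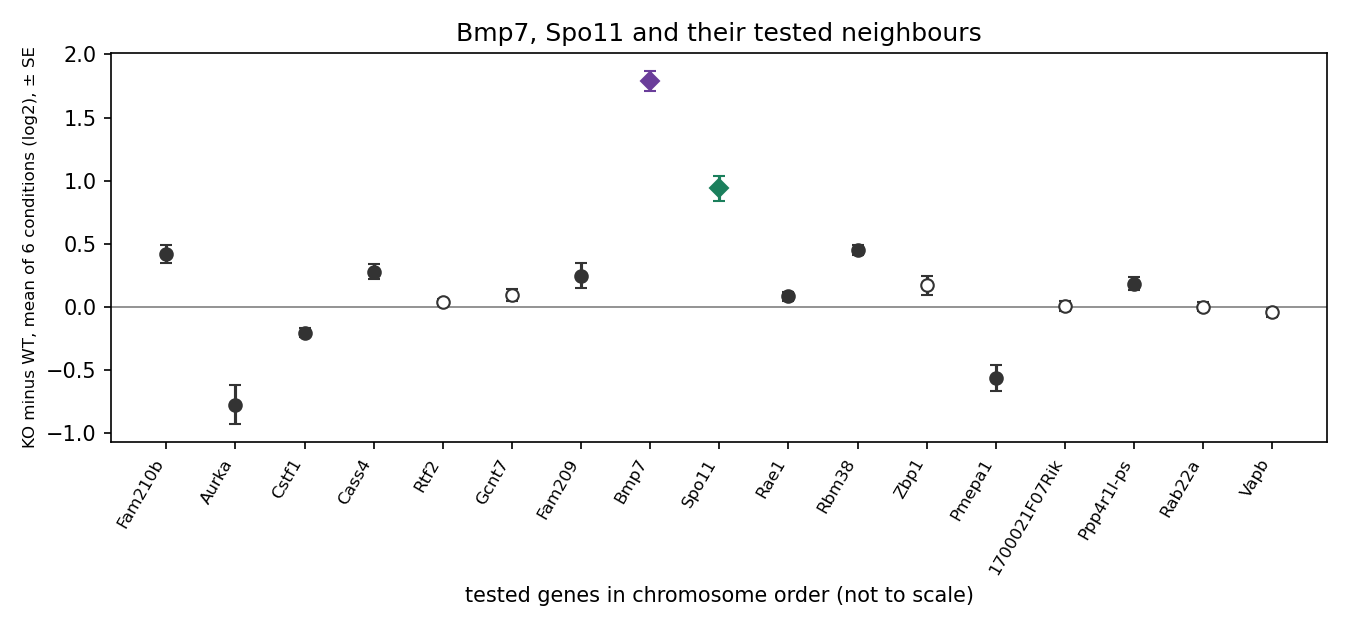
Difference between KO and WT averaged over the 6 conditions (log2, with SE) for Bmp7 and Spo11 (coloured diamonds, chosen for this difference) and the 15 tested genes around them in chromosome order, not to scale; filled circles passed an adjusted p of 0.05 and open circles did not. The neighbours lie between -0.77 (Aurka) and 0.45 (Rbm38), below the 0.94 of Spo11 and the 1.79 of Bmp7.

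The genes of the BMP pathway, listed from general knowledge, were read to set Bmp7 beside the ligands, receptors and targets around it. Of 53 other genes 28 passed the filter, and of these 5 rose (17.9%) and 8 fell (28.6%) in KO over the 6 conditions, close to the shares over all genes; their median was -0.03. Of 13 ligand genes other than Bmp7, 2 passed the filter, and the differences of Gdf6 (0.10, adjusted p = 0.35) and Gdf2 (0.06, adjusted p = 0.25) did not pass the test. Where 27.5% of all tested genes were called lower and 18.9% higher, 4 of 9 tested receptors and co-receptors fell (44.4%) and 0 rose. Those that fell were the type I receptor genes Acvr1 (-0.64, SE 0.08, adjusted p = 3.3e-07), Bmpr1a (-0.48, SE 0.06, adjusted p = 9.3e-08) and Acvrl1 (-0.33, SE 0.07, adjusted p = 0.00036), and the co-receptor gene Eng (-0.51, SE 0.09, adjusted p = 3.7e-05). They did not fall in every condition, as Acvrl1 had 0.50 in Th17 (adjusted p = 0.072) and Eng 0.03 in Th2 (adjusted p = 0.96). The type II receptor gene Bmpr2 had -0.02 (adjusted p = 0.82), with 0.55 in Th0 (adjusted p = 0.0093) and -0.49 in Th2 (adjusted p = 0.036).

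The 3 tested Smad genes of the pathway all rose, where 18.9% of all tested genes did, but by little in the mean of the 6 conditions. Smad5 had 0.25 (adjusted p = 2.2e-05), Smad4 0.12 (adjusted p = 0.0057) and Smad1 0.10 (adjusted p = 0.017). With each sample centred on its median Smad4 had 0.08 and Smad1 0.06 and neither passed. After repeated quantile normalization Smad1 had 0.07 and did not pass. Single conditions differed more. Smad5 had 0.77 in Th1 (adjusted p = 1.8e-06) and 0.50 in Th0 (adjusted p = 0.00031), but -0.28 in Treg (adjusted p = 0.14). Smad4 had 0.48 in Th1 (adjusted p = 4.5e-05), but -0.25 in Treg (adjusted p = 0.092). Of 8 tested inhibitors 2 rose (25%) and 3 fell (37.5%), where 18.9% and 27.5% of all tested genes did. Those that rose were Smad7 (0.39, adjusted p = 4.1e-08), an inhibitory Smad shared with the TGF-beta branch, and the ubiquitin ligase gene Smurf1 (0.26, adjusted p = 1.4e-05). Smad7 had 1.18 in Th1 (adjusted p = 6.1e-09) and 0.95 in Th0 (adjusted p = 2.4e-07). In naive cells it had -0.19 (adjusted p = 0.7) and in Treg -0.11 (adjusted p = 0.72). The pseudoreceptor gene Bambi (-0.43, adjusted p = 9.8e-05), Twsg1 (-0.35, adjusted p = 5e-06) and the BMP antagonist gene Nog (-0.14, adjusted p = 0.025) fell. In Treg Bambi had 0.49, which did not pass (adjusted p = 0.21). Of 6 tested target genes 1 was called lower in the mean of the conditions (16.7%, against 27.5% of all tested genes) and 0 higher. It was Id2, lower by a small amount (-0.15, adjusted p = 0.012), while Id1 had -0.13 (adjusted p = 0.083) and Id3 -0.26 (adjusted p = 0.06). In single conditions the target gene Hey1 fell in Th2 (-1.28, adjusted p = 0.0023) and rose in Th17 (0.92, adjusted p = 0.043), which cancelled in its mean of -0.09. Atoh8 fell in Th0 (-0.34, adjusted p = 0.049) and Id2 in Th1 (-0.31, adjusted p = 0.033).

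The meiotic genes were read beside Spo11 in the same way. Of 52 others 17 passed the filter, and 3 of these rose (17.6%) and 9 fell (52.9%) over the 6 conditions, where 18.9% of all tested genes were called higher and 27.5% lower; the median of the 17 was -0.18, against -0.01 over all tested genes. Among the 3 that rose, Hormad2 passed the filter through its KO samples alone (0 WT and 5 KO samples above the table-wide median). The lower calls came mostly in 2 conditions: 8 of the 17 genes were lower in Th0 and 7 in Th1, where 19.6% and 23.7% of all tested genes were. In the other conditions 0 were lower in naive cells, 2 in Th2, 2 in Th17 and 1 in Treg, where 0.199%, 8.88%, 4.18% and 2.51% of all tested genes were. In Treg the median was 0.08. In the break machinery itself 2 of 7 others passed the filter: Mei4, needed for the breaks, fell by 0.26 (SE 0.08, adjusted p = 0.01), and Prdm9, which places them, had 0.01 (adjusted p = 0.94). The partner subunit of Spo11, Top6bl (Gm960 in the table), did not pass the filter, nor did Rec114, Iho1 and Mei1. Of the genes of strand exchange and crossover 1 of 8 rose, Hsf2bp (0.41, adjusted p = 0.0002). A further 4 fell, Brca2 (-0.73, adjusted p = 8.1e-07), which also serves repair in dividing somatic cells, Swi5 (-0.42, adjusted p = 4.1e-07), Psmc3ip (-0.36, adjusted p = 3.8e-06) and Msh5 (-0.20, adjusted p = 0.0083).

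Of the 5 tested genes of the chromosome axis and synaptonemal complex 3 fell (60%) and 1 rose (20%), where 27.5% and 18.9% of all tested genes did. Trip13 (-0.84, adjusted p = 6.5e-07), which also acts in the mitotic spindle checkpoint, Syce2 (-0.75, adjusted p = 1.3e-09) and Stag3 (-0.32, adjusted p = 0.015) fell. Stag3 did not pass without KO Th0 1 and KO Th1 1 together (-0.23, adjusted p = 0.054). Hormad2 rose (0.45, adjusted p = 3.1e-08), but was above the table-wide median in 5 KO samples and 0 WT samples, so that it passed the filter through the samples where it was high. Gdf6 and the BMP target gene Hamp also had fewer than 3 WT samples above it. M1ap, a gene of male meiosis, rose by 1.29 (SE 0.09, adjusted p = 3.7e-12), and Ythdc2 fell (-0.18, adjusted p = 0.0012). M1ap and Hormad2 had their largest differences in Th17, 4.44 and 1.92, where Spo11 had 0.52.

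**Figure D5:**
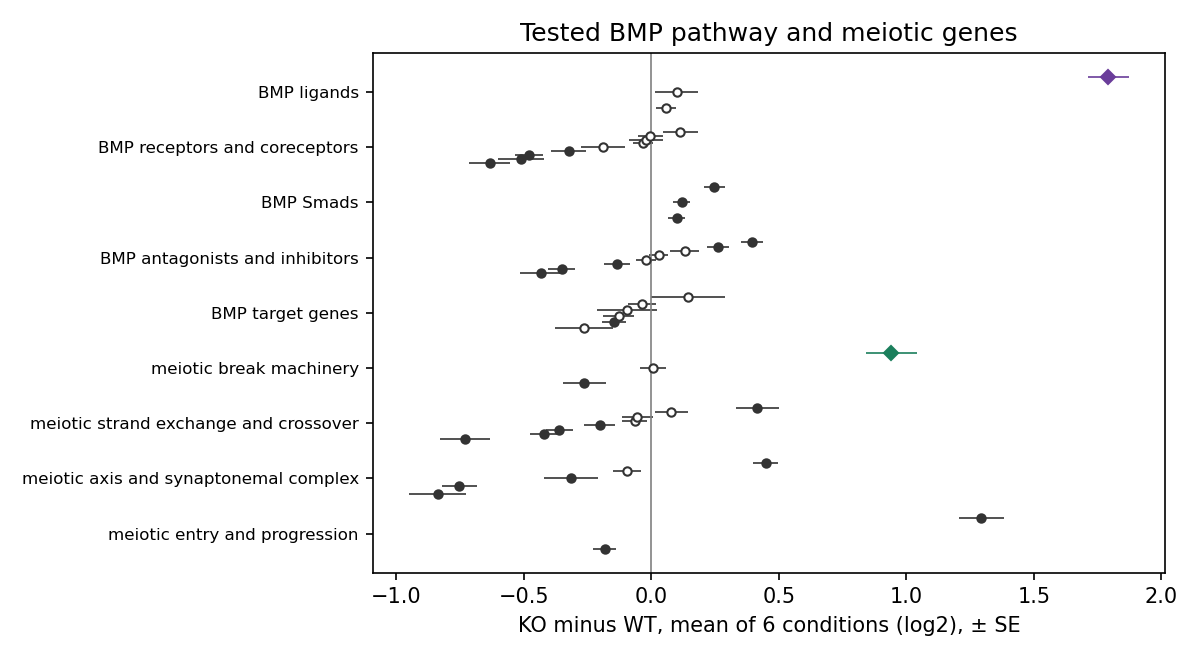
Difference between KO and WT averaged over the 6 conditions (log2, with SE) for the tested genes of the BMP and meiotic lists, by role; diamonds mark Bmp7 and Spo11, filled circles passed an adjusted p of 0.05 and open circles did not. Bmp7 (1.79) lies to the right of its list, and Spo11 (0.94) to the right of all genes of its list except M1ap (1.29).

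In naive cells, where KO samples 1 and 2 and WT sample 1 had high Xist, a term for sex based on it left the naive differences at 1.52 for Bmp7 and 0.83 for Spo11. Without KO Th0 1 and KO Th1 1, which earlier results of these data had named as standing apart, the mean differences were 1.76 and 0.93.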

How the data were processed

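Per the submitters' processing notes, the deposited log2 values were made by the authors with oligo in R 3.1.0, using RMA; annotation and genome build are not given in the sources used here. The table holds 41345 probe sets and 36 samples. Of these, 23521 had 1 symbol in the accompanying platform annotation, 1814 several and 16010 none. Where a gene had several rows (1082 genes), the one with the highest mean was used. Symbols were updated through RefSeq gene IDs. No further scaling was applied.

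A model with 12 group means was fitted to all samples with limma 3.58.1 (R 4.3.3; 24 residual degrees of freedom, 27.9 with the prior). From it, 22 comparisons were taken, each adjusted by Benjamini-Hochberg over 13082 genes at 0.05. With 3 arrays a group, their number limits the precision. The fit was tested on simulated data with independent noise, for the comparison of KO and WT in Th17 alone. The other comparisons, the counts and the correlations were not tested in this way. The members, lists and alternatives were chosen with earlier results of these data known. Genes named were the pair, the 3 nearest tested neighbours on each side, every neighbour that passed, up to 4 members of each list that passed, and the 5 most alike genes; others are named to account for a list, after their values were seen.

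Pairing by replicate number was checked by correlating same-numbered samples' deviations from group means. All 3 correlations were above 0.1 for KO Th1 with KO Th0 (0.70, 0.60 and 0.51), KO Treg with KO Th0 (0.23, 0.13 and 0.30), WT Th1 with WT Th0 (0.39, 0.33 and 0.23) and WT Th2 with WT Th0 (0.25, 0.12 and 0.11). The alternatives were testing all genes, a filter at 6.95 (the 70th percentile of the table), quantile normalization again, median centring, the mean of a gene's rows, a trended and robust prior, a fit to the compared groups alone, a replicate block, a term for sex by Xist, leaving out KO Th0 1 and KO Th1 1 together, and leaving out each sample in turn.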

Additional observations from a re-analysis of the deposited data

Results flagged for a closer look

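The KO effect differed between conditions, by an interaction test in limma with the adjusted p over all tested genes, in Bmp7 and 6 of the 15 tested neighbours, over 5 comparisons. Over all tested genes 18.5% passed between Th0 and naive cells, 10.2% between Th2 and Th0 and 27% between Treg and Th0, against 4, 1 and 6 of the 15 neighbours. For Bmp7 it was smaller in Th2 than in Th0, by -0.89 (adjusted p = 0.038), the call that single samples can end. Between Th0 and naive cells the KO effect differed for Fam210b by 0.77 (adjusted p = 0.024), for Aurka by -1.70 (adjusted p = 0.026), for Cstf1 by -0.57 (adjusted p = 0.0038) and for Pmepa1 by -1.96 (adjusted p = 0.00057). Between Th2 and Th0 that of Zbp1 differed by 1.09 (adjusted p = 0.0063). Between Treg and Th0 it differed for Fam210b by -0.83 (adjusted p = 0.01), Aurka by 1.64 (adjusted p = 0.023), Cstf1 by 0.44 (adjusted p = 0.013), Zbp1 by 0.91 (adjusted p = 0.0082), Pmepa1 by 1.39 (adjusted p = 0.0045) and Ppp4r1l-ps by -0.67 (adjusted p = 0.0082).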

How the results depend on the processing

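The log2 difference between KO and WT kept its sign, and moved by less than the spread between replicates, for both genes in each condition under every alternative run. Several alternatives could not move it, namely the filters, the mean of a gene's rows, the prior, the replicate block and the fit to the compared groups. Quantile normalization, median centring, the term for sex and left-out samples could, though leaving out a single sample shifts a group mean only in part. The widest move for its size was that of Spo11 in Treg, 0.33 to 0.78 as single samples were left out. The stricter filter removed Spo11. The Bmp7 difference of the KO effect between Th2 and Th0 lost its call with no filter (-0.89, adjusted p = 0.057), in a fit to those groups alone (-0.89, adjusted p = 0.057) and without KO Th0 1 and KO Th1 1 (-0.81, adjusted p = 0.097), and ranged from -1.06 to -0.73 as single samples were left out. In a fit to the groups compared, Spo11 passed in WT Th17 against Th0 (0.47, adjusted p = 0.037), in KO Th2 against Th0 (-0.49, adjusted p = 0.05) and in the Th17 against Th0 difference of the KO effect (-0.86, adjusted p = 0.021). With single samples left out, Spo11 ranged from -0.68 to -0.21 in WT Th2 against Th0, from -0.67 to -0.25 in KO Th0 against naive, from 0.56 to 0.87 in KO Th1 against Th0, and from -1.05 to -0.60 in the Treg against Th0 difference of the KO effect. The BMP genes that rose numbered 3 under median centring, and the meiotic genes that rose 1 under the stricter filter, which left fewer genes tested. Rising neighbours numbered 4 under median centring and 4 to 8 as single samples were left out. The replicate block changed no call of either gene (Bmp7, Th2 against Th0 difference of the KO effect, -0.89, adjusted p = 0.039). That block gives same-numbered samples of all groups a common shift, so it cannot model pairing that was seen only between some groups of a genotype. Higher genes made up 40.7% of all calls in the mean comparison and 27.2% under median centring. The cause of these changes was not tested.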
